A study of Mus musculus with 4 samples.

Results

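Open chromatin at 10 genes that mark astrocytes and their reactive state was examined in the mouse PVH, the hypothalamic paraventricular nucleus. The genes are Gfap, Vim, Slc1a2, Slc1a3, Glul, Aqp4, Gja1, Aldh1l1, Sox9 and Fgfr3, a list taken by name and not by a threshold on the peaks, out of 21887 protein-coding genes. For each gene, every peak overlapping the gene body or the 50 kb to each side of it was taken. Library peaks overlapping by 1 bp or more were joined, which gave 68 regions in the 10 windows, of 67299 regions in all.

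The data are ATAC-seq peak lists, in which a transposase marks accessible DNA, from 12-week-old mice of the genotype Otp fl/fl; Ai14. In these mice both groups carried loxP-flanked alleles of Otp, a homeodomain factor of hypothalamic neurons, and the Ai14 allele, a reporter switched on by Cre. There were 2 libraries from mice injected with AAV-GFP, the controls, and 2 from mice injected with AAV-Cre, all dissected 4 weeks after the injection. The labels give no promoter for the viruses and no sort of infected cells. They do not tie a library to an animal, so the spread within a group may be technical. The promoter of Otp itself had a weak peak in both controls (3.73 and 4.22) and in AAV-Cre replicate 2 (5.52), and none in AAV-Cre replicate 1; since the labels do not say which part of Otp is flanked, these peaks do not check its deletion.

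Astrocytes are glial cells that clear glutamate and potassium from synapses, pass metabolites through gap junctions and line blood vessels with their endfeet. After injury or virus injection they can become reactive, with more of the intermediate filaments GFAP and vimentin. In whole tissue, fewer astrocytes and less open chromatin per astrocyte cannot be told apart.

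Depth is unknown, because no read counts were used here, and list length differed. The lists held 57682 and 34100 peaks in AAV-GFP replicates 1 and 2, and 23384 and 26612 peaks in AAV-Cre replicates 1 and 2. AAV-GFP replicate 1 has by far the longest list, so counts below are also given per 1000 peaks, for lists shortened to 1 length or without a library. The names of the peaks in the library lists hold the letters sub, which the labels do not explain, so whether reads were subsampled before peak calling is not known. With 2 libraries a group, the smallest 2-sided exact p is 0.333, so no comparison of peak numbers between the groups could reach significance. All fold enrichments below are the authors' own ratio of signal to background for a peak. They describe peaks within 1 list and are not a scale across lists. Ranks and percentiles below are by −log10 p unless fold enrichment is named. A list percentile depends on the length of its list, so it is not a scale across lists either. Positions are on mm10, counted from 1.

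Few of these promoters were open in every library. A promoter peak is a peak within 1 kb of an annotated gene start. Of the 10 genes, 2 had one in all 4 libraries, Glul and Slc1a2, against 43.8% of all protein-coding genes. Gfap, Aqp4 and Gja1, 3 of the 10, had none in any library, against 39.9%. The other 5 genes had one in 1 to 3 libraries, against 13.2% of all genes in such mixed combinations. Of the 10, 0 had a promoter peak in the control pair only (3.05% of all genes), and 0 in the AAV-Cre pair only (0.0685%).

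By library, 7 and 3 of the 10 genes had a promoter peak in the first and second AAV-GFP library, and 2 and 4 of them in the first and second AAV-Cre library. The same shares over all genes were 58.4%, 54.6%, 47.9% and 49.4%. The second AAV-Cre library thus stood between the controls, and the groups overlapped. In the authors' deposited group lists, 3 genes had a promoter peak in the control list (53.3% of all genes) and 2 in the AAV-Cre list (43.9%). The gene that the AAV-Cre group list lacked was Aldh1l1.

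**Figure D1:**
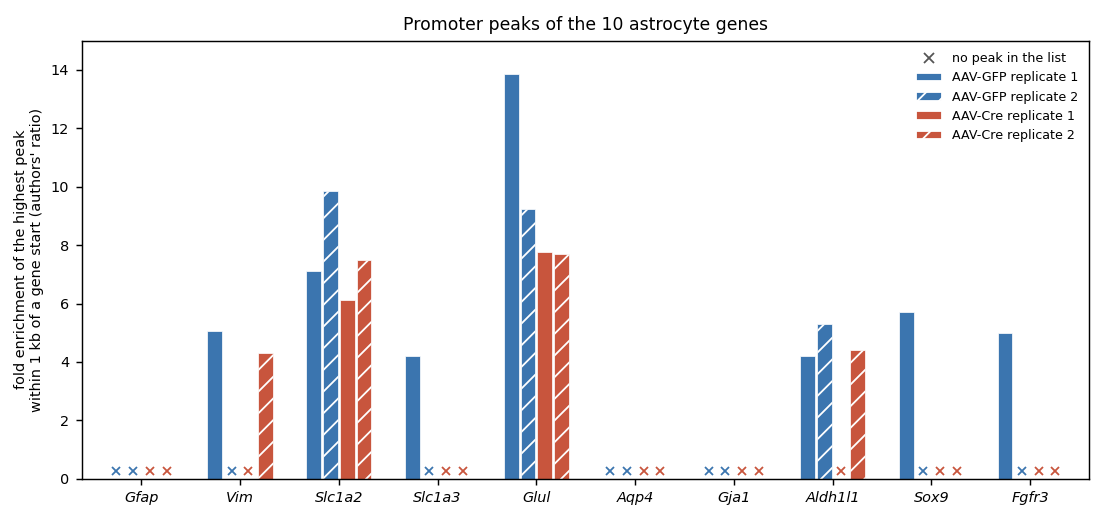
Fold enrichment (the authors' ratio, vertical axis) of the highest peak within 1 kb of a start of each of the 10 genes, 1 bar per library, with AAV-GFP in blue, AAV-Cre in red and second replicates hatched. Crosses mark libraries with no such peak: Glul and Slc1a2 have 4 bars each, and Gfap, Aqp4 and Gja1 have 4 crosses each.

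Promoter sequences are shown for the genes that differ most in this respect: Glul, open in all 4 libraries, Aldh1l1, open in 3, Vim, open in 2, Fgfr3, open in 1, and Gfap and Gja1, open in none. They are the bases before the annotated start (before the gene's 5′ end for Aldh1l1, the first start for Fgfr3), 5′ to 3′, from RefSeq on GRCm38.p6, the assembly behind mm10. Capitals mark the motifs listed after them.
Glul, chr1:153899679-153899928, plus strand: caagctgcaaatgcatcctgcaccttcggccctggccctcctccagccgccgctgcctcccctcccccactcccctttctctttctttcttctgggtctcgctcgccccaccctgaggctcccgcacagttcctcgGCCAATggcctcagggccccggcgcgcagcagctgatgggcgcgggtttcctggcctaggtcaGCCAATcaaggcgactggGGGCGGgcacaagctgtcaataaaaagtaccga
Aldh1l1, chr6:90550543-90550767, plus strand: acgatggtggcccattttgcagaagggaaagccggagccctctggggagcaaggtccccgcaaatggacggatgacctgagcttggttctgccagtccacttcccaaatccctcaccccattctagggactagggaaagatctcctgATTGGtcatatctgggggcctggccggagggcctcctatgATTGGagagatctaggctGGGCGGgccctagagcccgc
Fgfr3, chr5:33721474-33721723, plus strand: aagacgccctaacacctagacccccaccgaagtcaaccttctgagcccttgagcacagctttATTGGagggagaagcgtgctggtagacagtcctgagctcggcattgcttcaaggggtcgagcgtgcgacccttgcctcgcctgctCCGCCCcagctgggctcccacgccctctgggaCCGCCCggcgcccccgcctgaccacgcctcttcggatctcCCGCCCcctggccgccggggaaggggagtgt
Vim, chr2:13574061-13574310, plus strand: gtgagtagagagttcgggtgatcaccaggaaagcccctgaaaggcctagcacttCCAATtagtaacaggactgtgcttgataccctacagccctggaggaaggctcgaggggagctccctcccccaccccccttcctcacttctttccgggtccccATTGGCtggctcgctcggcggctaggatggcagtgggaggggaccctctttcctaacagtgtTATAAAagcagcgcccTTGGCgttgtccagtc
Gfap, chr11:102897201-102897450, minus strand: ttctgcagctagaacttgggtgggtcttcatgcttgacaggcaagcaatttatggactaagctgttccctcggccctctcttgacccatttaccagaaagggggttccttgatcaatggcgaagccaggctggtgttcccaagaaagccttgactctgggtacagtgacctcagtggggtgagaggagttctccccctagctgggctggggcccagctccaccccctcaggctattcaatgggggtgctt
Gja1, chr10:56377050-56377299, plus strand: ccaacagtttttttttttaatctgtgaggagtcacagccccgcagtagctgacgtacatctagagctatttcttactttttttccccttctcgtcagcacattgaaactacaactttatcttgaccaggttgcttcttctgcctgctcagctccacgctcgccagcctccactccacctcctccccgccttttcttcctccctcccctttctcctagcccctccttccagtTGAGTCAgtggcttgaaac

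A promoter sequence was matched for 8 of the 10 genes, with 9 starts among them. The motifs were searched on both strands in the 250 bases before a start. The CCAAT box (CCAAT) was found at 5 of the 9 starts, in Aldh1l1, Fgfr3, Glul, Slc1a3 and Vim, against 35.4% of 21263 promoters of protein-coding genes. The GC box (GGGCGG), bound by Sp factors, was found at 5 of 9, in Aldh1l1, Glul, Slc1a3 and both Fgfr3 starts, against 42.6%. The short core of NFI factors (TTGGC), regulators of astrocyte genes, was found at 3 of 9, in Glul, Vim and before the inner start of Slc1a2, against 43%. In Glul both NFI cores overlap a CCAAT box, at 113 and 50 bases before the start, and the same letters count for both motifs. In Vim the NFI core 93 bases before the start likewise overlaps the CCAAT box at 94.

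Other motifs were rarer. The AP-1 motif (TGANTCA) was found in Gja1 alone, 19 bases before its start, against 6.13% of promoters. The STAT motif (TTCNNNGAA) was found in Slc1a3 alone, against 6.58%, and so was 1 SOX core (ACAAT, 25.1%). The TATA motif (TATAAA) was found in Vim, 32 bases before the start, and in Slc1a3, against 11.6%. The other SOX core (ACAAAG, 14.9%), the full palindromic NFI site (0.0329%), the CRE (TGACGTCA, 1.92%) and the homeodomain core (TAATTA, 4.31%) were not in these windows. The Gfap window held none of the motifs searched. G and C made up 64.8% of the Glul window and 44.8% of that of Slc1a3, with a median of 55.6% over all promoters.

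In the wider windows the longest control list held more peaks than any other. The number of peaks in the 10 windows was 67 and 29 in AAV-GFP replicates 1 and 2, and 24 and 23 in AAV-Cre replicates 1 and 2. AAV-GFP replicate 1 stood far above the other 3, which lay close together. Means of 48 ± 26.9 peaks (SD, n = 2) for AAV-GFP and 23.5 ± 0.707 peaks (SD, n = 2) for AAV-Cre gave a ratio of 2.04, with a 2-sided exact permutation p of 0.333. Per 1000 peaks of a list, the values were 1.16, 0.850, 1.03 and 0.864 in the same order, and the groups overlapped (exact permutation p of 1, ratio 1.06, n = 2 a group). In lists shortened to the same length the ratio was 0.930, and without AAV-GFP replicate 1 it was 1.23, while it was 2.65 over peaks with −log10 q from 5 upward and 2.5 in a 10 kb window.

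Of the 68 regions, 12 had a peak in all 4 libraries, against 21.7% of all regions, and 30 were in AAV-GFP replicate 1 alone, against 34.9%. The term control-specific stands for a region with a peak in each AAV-GFP library and in no AAV-Cre library. Both controls had a peak in 27 of the regions, and 6 of these (22.2%) were control-specific, against 27% of all regions open in both controls. A further 4 were missing from AAV-Cre replicate 2 only, against 8.08%, and 5 from AAV-Cre replicate 1 only, against 13.7%. The AAV-Cre pair shared 15 regions, and each of them had a control peak, so that 0 were Cre-specific, against 4.8%.

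The 6 control-specific regions lay at 5 genes, Gfap, Slc1a2 (with 2), Slc1a3, Fgfr3 and Sox9, and none was at a promoter of the 10 genes. Of the 52 regions away from every gene's promoter, 19 were open in both controls and 5 of those were control-specific, against 39.4% of all such regions. Their folds ran from 4.19 to 6.52 and their percentiles, counted from the strongest peak of a list by −log10 p, from 44.4 to 85.7, in the middle and lower part of the control lists. With lists shortened to 23384 peaks, 0 of them remained control-specific. That length kept 40.5% of the AAV-GFP replicate 1 list, and all 6 regions ranked below that point there. At a −log10 q of at least 5, 2 regions were control-specific, 1 of them, inside Sox9, shared with the 6. Requiring 1 library fewer gave 7 regions without AAV-GFP replicate 1 and 36 without AAV-GFP replicate 2. It gave 10 without AAV-Cre replicate 1 and 11 without AAV-Cre replicate 2. Among the 36 are the 30 regions found in AAV-GFP replicate 1 alone, a pattern of 34.9% of all regions. The shares over all regions are not given for these calls.

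Among the peaks of the authors' deposited group lists, 27 control and 15 AAV-Cre regions fell in the windows. Of the control regions, 15 met no AAV-Cre group peak, against 48.9% of all control group regions, and of the AAV-Cre regions, 3 met no control group peak, against 11.6%. Those 3 were 2 distal peaks of Aldh1l1 and 1 of Aqp4.

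**Figure D2:**
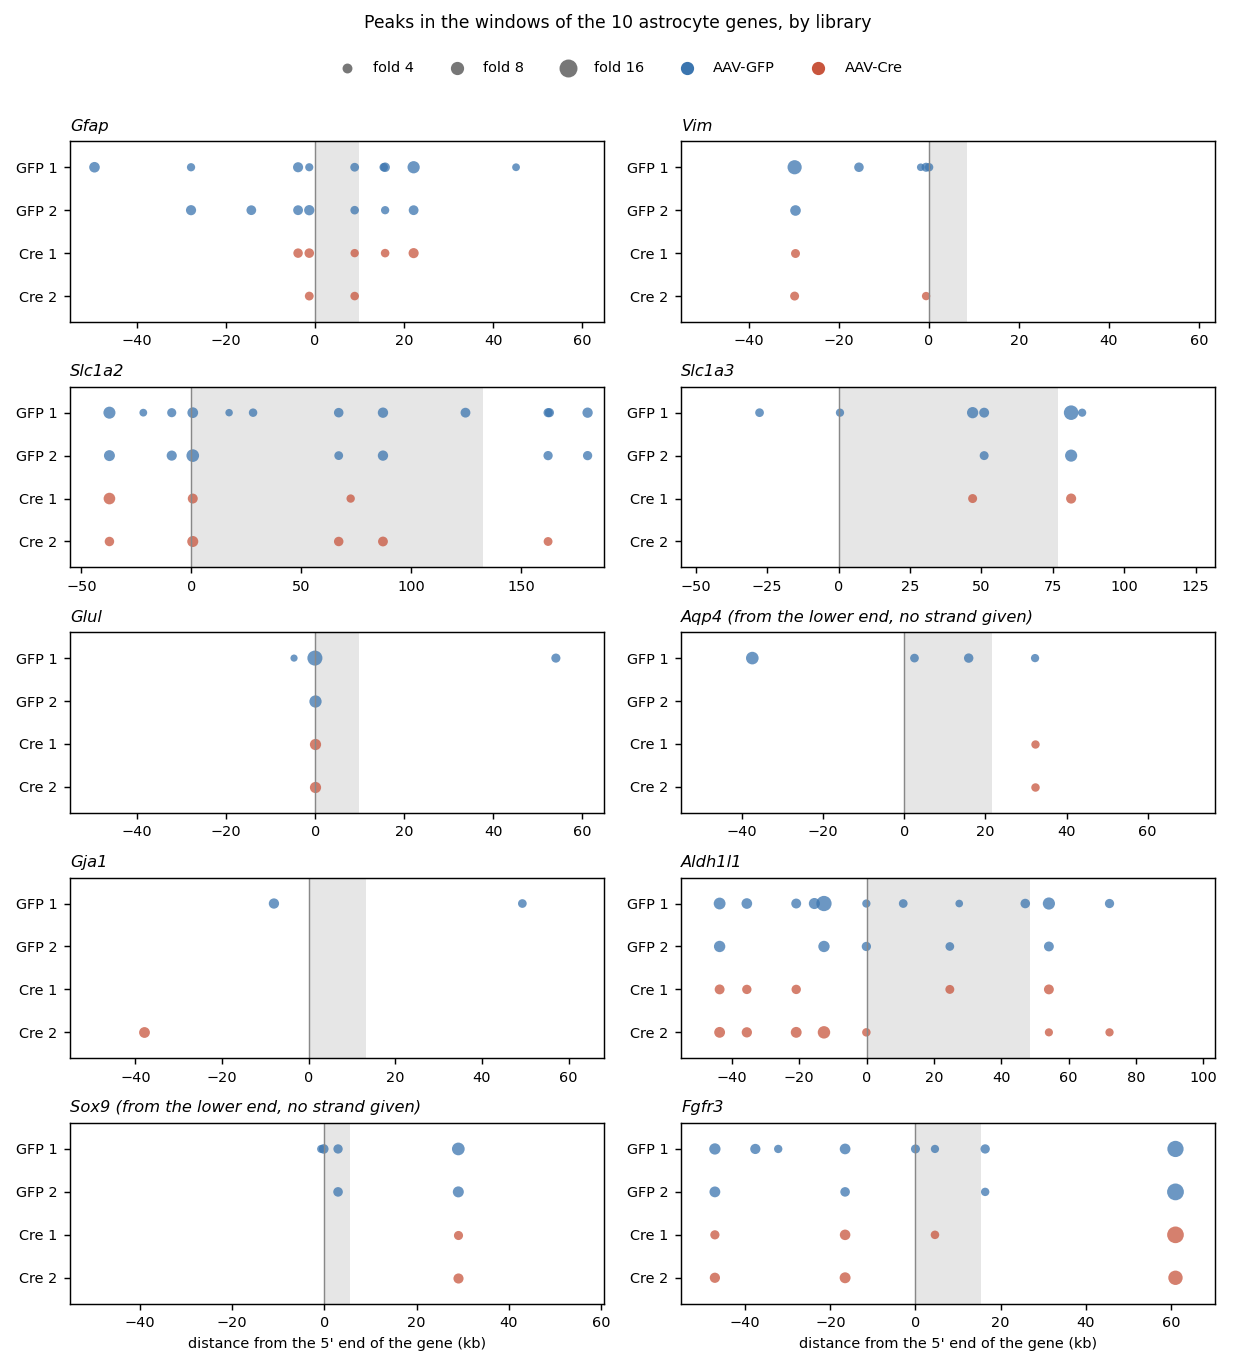
Each panel shows 1 gene, with distance from its 5′ end in kb along the horizontal axis, from its lower end for Aqp4 and Sox9, the gene body in grey, and a row per library. Each dot is a region with a peak in that library, placed at the region's highest summit and sized by fold enrichment: the AAV-GFP replicate 1 row holds the most dots for each of the 10 genes.

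The intermediate filament genes are those used to read reactivity. Gfap, which encodes glial fibrillary acidic protein, lies on chromosome 11 from 102887336 to 102897200 on the minus strand. Its nearest region upstream, at 102898410 to 102898717, ended 1210 bp before the start and had a peak in all 4 libraries. The folds there were 4.08 and 6.50 in AAV-GFP replicates 1 and 2, and 5.63 and 4.80 in AAV-Cre replicates 1 and 2. It fell outside the 1 kb promoter window, and a window of 2500 bp adds Gfap to the genes with a promoter peak in all 4 libraries, which then number 3.

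A second Gfap region shared by all 4, at 102888102 to 102888643, lay inside the gene near its 3′ end. Its folds were 4.76, 4.52, 4.31 and 4.55, with list percentiles of 49.0, 72.5, 79.9 and 74.0. A region 3648 bp upstream, at 102900848 to 102901173, had folds of 6.28, 5.93 and 5.50 in the controls and AAV-Cre replicate 1, and no peak in AAV-Cre replicate 2. The same 3 libraries had peaks 12106 bp past the 3′ end in Eftud2, with folds of 9.22, 5.91 and 6.30, and 5805 bp past it at the start of Ccdc103 and an end of Eftud2, with folds of 5.63, 4.22 and 4.52. AAV-Cre replicate 2 thus lacked 3 regions around Gfap that AAV-Cre replicate 1 held. The control-specific region, at 102924953 to 102925425 (4.19 and 6.34), lay 27753 bp upstream at the start of Kif18b, a kinesin gene.

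Vim encodes vimentin and lies on chromosome 2 from 13574311 to 13582826 on the plus strand. Over its start, at 13574215 to 13574593, AAV-GFP replicate 1 alone had a peak (4.31). At 373 bp upstream, 13573578 to 13573938, peaks were found for AAV-GFP replicate 1 (5.06) and for AAV-Cre replicate 2 (4.32). One library of each group thus had a Vim promoter peak. The region of the window shared by all 4, at 13544218 to 13544881, lay at the start of Trdmt1, an RNA methyltransferase gene. Its folds were 12.4, 6.93, 4.92 and 4.95.

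Of the genes of glutamate handling, Glul and Slc1a2 had a promoter peak in all 4 libraries and Slc1a3 in 1. Glul encodes glutamine synthetase, which turns glutamate into glutamine, and lies on chromosome 1 from 153899929 to 153909723 on the plus strand. Its promoter region, at 153899476 to 153900542, was 1067 bp wide and had folds of 13.9 and 9.24 in the controls, and those after AAV-Cre were 7.75 and 7.71. Within the lists it stood at percentiles 2.01, 12.3, 14.7 and 13.4, so it was among the strongest peaks of each library. The authors' deposited group lists gave it a fold of 12.6 in the control list and 8.35 in the AAV-Cre list. The other 2 regions of the Glul window were in AAV-GFP replicate 1 alone.

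Slc1a2 encodes GLT-1, the main glutamate transporter of astrocytes, and lies on chromosome 2 from 102658239 to 102790784 on the plus strand. At its 5′ end, from 102658317 to 102659278, all 4 libraries had a peak, with folds of 7.11 and 9.85 in the controls, and those after AAV-Cre were 6.12 and 7.48. The list percentiles were 21.7, 13.6, 36.2 and 21.5. By list percentile AAV-Cre replicate 1 had the weakest rank of the 4, and the other AAV-Cre library stood between the controls. The lists differ in length, and this order did not hold among the regions shared by all 4 libraries. There AAV-GFP replicate 1 ranked weakest, at percentile 66.1, with AAV-GFP replicate 2 at 31.2. The AAV-Cre values, 53.5 and 37.6, both lay between the controls. Around the annotated start further inside the gene, at 102706438, no library had a peak within 1 kb.

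Inside Slc1a2, AAV-Cre replicate 1 lacked 2 regions that the other 3 libraries held. At 102725171 to 102725490 the folds were 5.59, 4.76 and 5.52 in the controls and AAV-Cre replicate 2. At 102745232 to 102746030 they were 6.58, 6.54 and 5.93. Another region with that pattern, at 102820344 to 102820661, lay past the 3′ end in Cd44, a gene of the reactive state. The control-specific regions were at 102649251 to 102649457, 8782 bp upstream (5.13 and 6.35), and at 102838238 to 102838566 in Cd44 (6.52 and 5.29). The remaining shared region, at 102620721 to 102621214 in Pamr1, had folds of 8.92, 7.40, 8.32 and 5.52.

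Slc1a3 encodes GLAST, the other glutamate transporter of astrocytes, and lies on chromosome 15 from 8634124 to 8710807 on the minus strand. Only AAV-GFP replicate 1 had a promoter peak, at 8710139 to 8710513 inside the gene (4.19). The strongest region of the window, at 8629191 to 8629680, lay 4444 bp past the 3′ end. It had folds of 13.0 and 9.08 in the controls and 6.26 in AAV-Cre replicate 1, and no peak in AAV-Cre replicate 2. In the gene, the region at 8659799 to 8659983 was control-specific (6.08 and 4.93), and that at 8663613 to 8664033 had a peak in replicate 1 of each group (7.82 and 4.97). The AAV-Cre group list held 0 peaks in this window and the control group list 2.

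The membrane channel genes had few regions, most of them in 1 library. Aqp4 encodes the water channel of astrocyte endfeet and lies on chromosome 18 from 15389394 to 15410982. Of its 4 regions, 3 were in AAV-GFP replicate 1 alone, 2 of them inside the gene with folds of 4.66 and 5.46. The fourth, at 15421202 to 15421705, lay 10220 bp above the gene and had peaks in AAV-GFP replicate 1 (4.19) and both AAV-Cre libraries (4.31 and 4.42). All 3 peaks there ranked low, at percentiles 85.7, 89.6 and 88.2. AAV-GFP replicate 2 had 0 peaks in the window.

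Gja1 encodes connexin 43, the gap junction protein of astrocytes, and lies on chromosome 10 from 56377300 to 56390419 on the plus strand. Each of its 3 regions was in 1 library. AAV-GFP replicate 1 had peaks 7908 bp upstream (6.52) and past the 3′ end (4.66), and AAV-Cre replicate 2 had 1 peak at 56339269 to 56339480, 37820 bp upstream (7.18). Neither group list held a peak there.

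Aldh1l1, which encodes a folate enzyme used as a marker of astrocytes throughout the brain, lies on chromosome 6 from 90550768 to 90599171 on the plus strand. Its promoter region, at 90550583 to 90550803, had folds of 4.19 and 5.29 in the controls and 4.42 in AAV-Cre replicate 2, and no peak in AAV-Cre replicate 1. These were weak peaks of their lists, at percentiles 85.7, 70.1 and 88.2. The value of 4.19 in AAV-GFP replicate 1 recurs at 4 of the regions described here, so peaks of this strength share their rank.

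By rank, the strongest peak of the Aldh1l1 window was in the same upstream region for both AAV-GFP libraries and AAV-Cre replicate 2. At 90538037 to 90538246, 12522 bp before the gene, the folds were 14.4 and 7.93 in the controls and 9.54 in AAV-Cre replicate 2. That put it at percentiles 5.60, 28.6 and 13.1, yet AAV-Cre replicate 1 had no peak there. The regions at 90515127 to 90515438 and 90529608 to 90529985 went another way, with folds of 6.99 and 6.06 for AAV-GFP replicate 1, 5.39 and 5.41 for AAV-Cre replicate 1, and 6.49 and 7.28 for AAV-Cre replicate 2. AAV-GFP replicate 2 lacked both. A region shared by all 4 lay at 90506920 to 90507231, 43537 bp upstream, with folds of 8.61, 7.95, 6.02 and 7.21. Another lay past the gene at an end of Slc41a3, from 90604433 to 90605158, with folds of 9.12, 6.002, 6.002 and 4.07. By rank it was the strongest region of the window in AAV-Cre replicate 1, at percentile 29.7 of that list.

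The regulators came last. Sox9 encodes a transcription factor that keeps astrocyte identity and lies on chromosome 11 from 112782210 to 112787757. AAV-GFP replicate 1 alone had peaks by its lower end, at 112781456 (4.08) and at 112782012 to 112782178 (5.70). Inside the gene, the region at 112785023 to 112785229 was control-specific, with folds of 5.34 and 5.65. Its −log10 q values were 6.85 and 5.98. The region at 112811175 to 112812031, 23418 bp above the gene, was shared by all 4, with folds of 9.94, 7.46, 5.11 and 6.32.

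Fgfr3, a receptor for fibroblast growth factors carried by astrocytes and their precursors, lies on chromosome 5 from 33721724 to 33737068 on the plus strand. Its control-specific peak, at 33738044 to 33738330 (5.34 and 4.35), lay 976 bp past the 3′ end, not at a start. Over the first start, at 33721649 to 33721801, AAV-GFP replicate 1 alone had a peak (5.003). Upstream, the regions at 33705081 to 33705738 and 33674427 to 33674740 were shared by all 4 libraries. At the first the folds were 7.06 and 5.64 in the controls, and those after AAV-Cre were 6.85 and 7.35. The strongest region of the window, at 33782443 to 33783299 with folds of 16.2, 17.3, 17.1 and 12.7, was at the start of Letm1, a gene of mitochondrial ion exchange.

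The 12 regions shared by all 4 libraries allow the libraries to be compared by rank, since each library then ranks the same 14634 shared regions. In 2 of the 12, both AAV-Cre percentiles were weaker than both control percentiles, against 19.7% of all shared regions, and in 2 both were stronger, against 19.8%. In the other 8 the groups overlapped. The shares were thus near the background in both directions. Leaving out any 1 library gave 4 to 5 weaker and 3 to 6 stronger regions. Fewer values then have to be apart. The regions ranked are then those shared by the libraries left, which can be more than the 12. The share over all such regions is not given here, so these counts have no background beside them.

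The weaker regions were that at the start of Trdmt1 in the Vim window and that above Sox9. The Trdmt1 region stood at percentiles 41.8 and 77.2 for AAV-GFP against 87.8 and 92.1 for AAV-Cre. Its mean moved by 30.5 points, which 7.20% of shared regions matched or passed in either direction. The 2 controls lay further apart than that shift. The region above Sox9 moved from 52.6 and 67.6 to 86.0 and 68.5, where AAV-Cre replicate 2 was next to AAV-GFP replicate 2.

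The stronger regions were that 15986 bp upstream of Fgfr3 and that inside Gfap. The Fgfr3 region stood at percentiles 79.0 and 88.2 in the controls, and those after AAV-Cre were 50.7 and 49.4, a shift of -33.5 points toward stronger rank. Of all shared regions, 4.995% shifted as far in either direction. Here the gap between the groups was wider than the spread within either. The Gfap region moved by -2.23 points, with values of 92.8 and 94.4 against 91.9 and 90.8, a size that 84.6% of shared regions reached. The Glul promoter stood at 7.75 and 28.1 in the controls, and those after AAV-Cre were 23.2 and 24.1, so both AAV-Cre values lay between the controls. The promoter of Slc1a2, at 66.1, 31.2, 53.5 and 37.6, likewise overlapped between the groups.

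**Figure D3:**
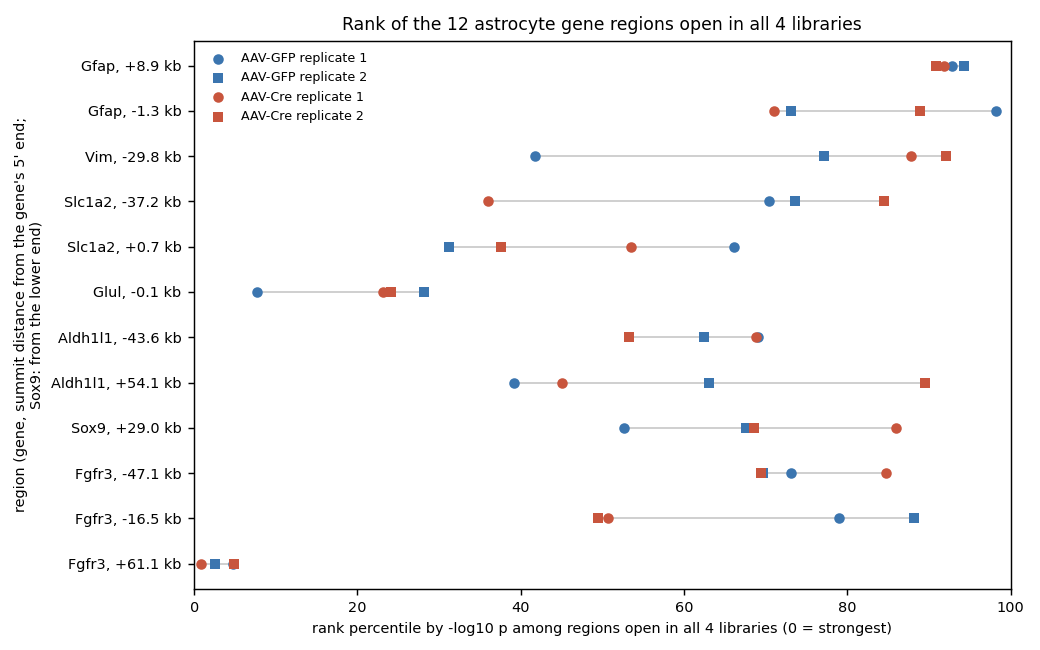
Rank percentile by −log10 p among the 14634 regions shared by all 4 libraries (horizontal axis, 0 is strongest) for the 12 shared regions of the astrocyte genes, with AAV-GFP in blue, AAV-Cre in red, circles for replicate 1 and squares for replicate 2. Both AAV-Cre libraries rank weaker in 2 rows and stronger in 2, against 19.7% and 19.8% of all shared regions. One of the stronger rows is the second from the bottom, upstream of Fgfr3, at 50.7 and 49.4. The groups overlap at the Glul and Slc1a2 promoters.

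Lists of further astrocyte genes were counted in the same way, as a description with no test. Of 30 other identity genes, 9 (30%) had a promoter peak in all 4 libraries, against 43.8% of all genes. These were Aldoc, Bcan, Clu, Cst3, Itih3, Ndrg2, Ntsr2, Ptprz1 and Slc4a4. Another 3 (10%) had one in the control pair only, against 3.05% of all genes. Among them were Apoe, a lipid carrier (4.08 and 3.10), and Mlc1, an endfoot membrane protein (8.61 and 6.22). The Apoe peaks stood at list percentiles 68.5 and 99.8, the second near the bottom of its list, and those of Mlc1 at 22.5 and 47.8. The promoter calls of this list were not repeated with lists of equal length. Mixed combinations held 15, and Gjb6, Id3 and Nfia had no promoter peak. By library the counts were 25 and 19 in the controls, and those after AAV-Cre were 12 and 14, and the groups did not overlap. Over all genes the controls were also higher, with the shares given above.

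Of 22 other reactivity genes, 4 (18.2%) had a promoter peak in all 4 libraries, against 43.8% of all genes: Ptx3, S100a10, Socs3 and Stat3. Stat3, a transcription factor of the reactive response, had the strongest of these, with folds of 19.4, 18.4, 16.7 and 19.1. Psmb8, an immunoproteasome subunit, was control-specific (6.05 and 5.03), which is 4.55% of the list, against 3.05% of all genes. No promoter peak was found for 12 genes (54.5%), against 39.9% of all genes. By library the counts were 8 and 7 in the controls, and those after AAV-Cre were 5 and 6, and the groups did not overlap. Over all genes the controls were also higher, with 58.4% and 54.6% against 47.9% and 49.4%. No identity or reactivity gene was open in both AAV-Cre libraries alone. Within 50 kb, 24.8% of the identity and 20.3% of the reactivity regions open in both controls were control-specific, against 27% of all.

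Markers of other cells were read in the same way. Over all protein-coding genes, 43.8% had a promoter peak in all 4 libraries and 39.9% in none. The control pair only held 3.05% of them, and the AAV-Cre pair only 0.0685%. Of 10 neuronal genes, 5 had a promoter peak in all 4 libraries, among them Snap25 and Syt1, and 1, Slc17a6, was control-specific. Of 10 oligodendrocyte lineage genes, 0 were open in all 4, and 6 in no library. Of 10 tanycyte and ependymal genes, 6 (60%) were open in no library. Foxj1 and Rax were open in all 4, and Dnah11 in both AAV-Cre libraries alone. Of 8 microglia genes, 7 were open in none. Of 8 endothelial and mural genes, Vtn was control-specific and 7 were open in none. Of 9 PVH genes, Mc4r and Pou3f2 were open in all 4 and Sim1 in the controls alone, while Avp, Trh and Sst had no promoter peak and Otp, Crh and Oxt were open in 1 to 3 libraries. What part the mix of cell types has in the values of the astrocyte genes was not tested.

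**Figure D4:**
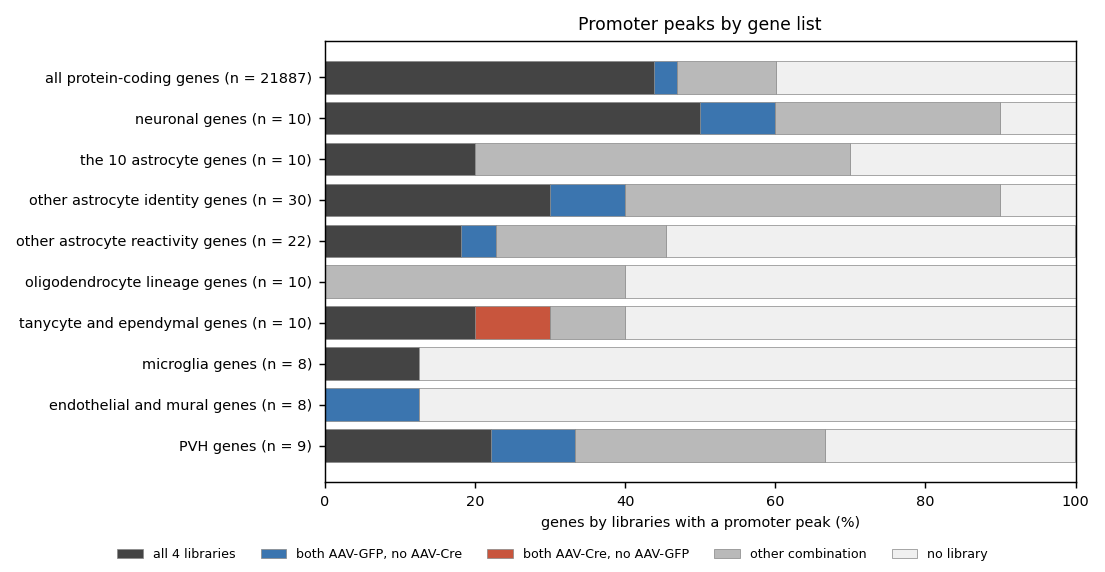
Share of genes (horizontal axis, %) with a promoter peak in all 4 libraries, in both AAV-GFP libraries only, in both AAV-Cre libraries only, in another combination or in no library, for all protein-coding genes, the 10 astrocyte genes and 8 other lists. The dark part is 20% for the 10 astrocyte genes, 50% for neuronal genes and 43.8% for all genes.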

How the data were processed

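Chromatin accessibility was profiled by ATAC-seq in 2 AAV-GFP and 2 AAV-Cre libraries of the mouse PVH. The submitters' processing notes name Bowtie2, MACS2, Trim Galore and FastQC, and mm10. The sources used here do not give versions, filters, a transposase shift or the calling threshold. The authors deposited 6 peak lists, 1 per library and 1 per group. Each gives start, end and summit in bp, a score (10 times −log10 q, whole part), the fold enrichment (a ratio over background), and −log10 p and −log10 q, all deposited by the authors. The group lists carry names that mark pooled calls.

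Library peaks sharing at least 1 bp were merged. Per region and library the strongest peak by −log10 p was kept. Gene positions came from RefSeq (GRCm38.p6). Starts are the 5′ end of a gene and the starts of the promoter table, which gave the strand of 17492 genes and 8 of the 10. For Aqp4 and Sox9 both gene ends were used. Exons were not used here. All 10 genes are named, with every promoter, group-specific and shared region, and list genes with group-specific promoters, except items that are not reported here. The genes, lists and tests were chosen with earlier results of these data known. Peak numbers were compared by an exact permutation test over libraries. The alternatives were equal list length, −log10 q of at least 5, stricter overlap, group lists, other windows, rank by fold enrichment, and leaving out each library. The merging and ranking code was run on simpler simulated lists with known patterns. That checked the code, and not how reliable the calls are in these data. Python 3.11.15, pandas 2.3.3, NumPy 2.4.6 and SciPy 1.17.1 were used.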

Additional observations from a re-analysis of the deposited data

How the results depend on the processing

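Depth is unknown, and counts of control-specific regions moved with list length and with the libraries required. Against 6 control-specific regions in the 10 windows, equal list length gave 0, a −log10 q of at least 5 gave 2, and the group lists 15. Leaving out a library gave 7 to 36: 7 without AAV-GFP replicate 1, 36 without AAV-GFP replicate 2, 10 without AAV-Cre replicate 1 and 11 without AAV-Cre replicate 2. With 3 libraries the call needs 1 list fewer, and no share over all regions is given for these counts. Against 0 Cre-specific regions, equal length gave 2, inside Gfap and upstream of Aldh1l1, the group lists gave 3, and leave-one-out gave 0 to 2. Stricter overlap, a 10 kb window and leaving out ends of other genes gave 4 to 5 control-specific and 0 Cre-specific regions.

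The ratio of peak numbers, 2.04, became 0.930 at equal length (exact permutation p of 1), a reversed direction, and 1.23 to 2.85 without a library, lowest without AAV-GFP replicate 1. Genes with a promoter peak in all 4 libraries numbered 2 to 3 under every alternative run. Reading both ends of every gene, chosen after seeing the data, gave 3, the third being Gfap by its 3′ end.

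Of the shared regions, 2 ranked weaker after AAV-Cre, against 0 in a 10 kb window, 1 without ends of other genes and 4 to 5 without a library. The 2 that ranked stronger became 1 in a 10 kb window and 3 to 6 without a library. Fewer libraries make groups separate more easily, and the smaller window holds fewer regions. Without a library, more regions can be shared by those left, and no share over all regions is given for these settings. Ranking by fold enrichment gave 2 and 2.

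The labels number the libraries 1 and 2 in each group, with nothing to say that a number marks a shared animal or batch. With the replicate block the ratio was 2.04 with an exact permutation p of 0.5, the smallest that 2 pairs allow.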
